A study of Mus musculus with 6 samples.

Results

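The HSP90 chaperones and the co-chaperones that work with them were described in the colon epithelium of mice fed UDCA (ursodeoxycholic acid, a water-loving bile acid used as a medicine in liver disease). The 10 genes are Hsp90aa1 and Hsp90ab1, which encode the cytosolic HSP90 proteins, and the co-chaperone genes Ahsa1, Ahsa2, Chordc1, Stip1, Cdc37, Fkbp4, Ptges3 and Cacybp. The family was selected on earlier results of the same comparison of UDCA with control pools, so the differences between the diets are given below as a description. No p-value of a single member is printed, and counts of members past a threshold are set beside the share over all probe sets and read as a description too. All probe sets with a member's symbol as their only symbol in the platform annotation were taken, which gave 12 of 22690 probe sets, for 8 of the 10 genes. Hsp90ab1 is not named in that annotation. Its 2 probe sets were recognised by the Hsp90ab1 transcript accession in the authors' deposited table and are given beside the members without being counted among them. The 2 probe sets of Ptges3 carry the symbol of its pseudogene Ptges3-ps as well, so their signal cannot be assigned to either.

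The control animals ate a standard diet and the treated animals a diet with 0.4% UDCA; the sources used here give no strain, no age and no time on the diet. RNA of 2 animals was combined for each array, so each group has 3 arrays, named pools 1+2, 3+4 and 5+6, from 6 animals. The submitters label the samples murine colon epithelium and also carry the tag IEC-6, the name of a rat intestinal cell line, while the marker genes below are those of the tissue.

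HSP90 is an ATP-driven chaperone dimer that brings steroid receptors, kinases and many other client proteins to their active form. Its co-chaperones deliver clients, set the pace of the ATPase cycle or hold the dimer in one of its states. Under proteotoxic stress the heat shock transcription factor HSF1 binds heat shock elements, which are repeats of the unit GAA in alternating orientation, and switches on HSP90 and several of these partners together with HSP70.

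All signals below are quantile-normalised intensities, and differences are UDCA minus control in log2(signal + 16), which understates the change of dim genes. Before normalisation the arrays differed in level, with medians from 67.4 to 87.2. All 11 colon epithelium markers measured lay above the filter on dim probe sets, which begins at a signal of 76.0, with a summed signal of 60801 to 63378 in control and 59651 to 63842 in UDCA pools. Of the markers of T and NK cells (8 measured), B and plasma cells (4), fibroblasts (6), endothelium (5) and smooth muscle (6), none lay above it, and of 8 myeloid markers only Cd14 did. The summed fibroblast signal was 57.4 to 106.5 in control and 69.1 to 75.1 in UDCA pools, and on the Actb control probe sets the 3' signal was 1.15 to 1.25 times the 5' signal. On the Gapdh control probe sets this ratio was 0.711, 0.703 and 0.739 in control pools 1+2, 3+4 and 5+6 and 0.763, 0.794 and 0.724 in the UDCA pools. The Gapdh ratio was highest in UDCA pools 1+2 and 3+4, the pools in which most members were highest. The Actb ratio was 1.22, 1.19 and 1.22 in the control pools and 1.15, 1.24 and 1.25 in the UDCA pools. It had another order, lowest in UDCA pool 1+2 and highest in UDCA pool 5+6. The part of either ratio in the results was not tested. Over the 11313 probe sets tested, control pool 5+6 had its highest correlation with UDCA pool 5+6 (r = 0.984) and lower ones with the other control pools (r = 0.976 with each), while control pools 1+2 and 3+4 were most alike (r = 0.986). Each member is therefore also given as the range of its difference with each of the 6 arrays left out in turn. In bulk tissue, more RNA per cell and more cells with the transcript cannot be told apart.

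All 8 genes with an assignable probe set were higher on average in the UDCA pools. Chordc1, Ahsa2 and Stip1 differed most, with 1.86, 1.83 and 1.73 times the control level, and Cdc37 and Hsp90aa1 differed least, with 1.06 and 1.22 times in their brightest probe sets. UDCA pools 1+2 and 3+4 carried most of the difference for all 8 genes but Cdc37, and UDCA pool 5+6 lay nearer to the control pools than they did. The order of Chordc1 and Ahsa2 turned with a pseudocount of 1, at 0.92 and 0.95 on the log2 scale. No member passed the test over all normalised probe sets.

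Promoter windows from RefSeq (GRCm38.p6, 250 bases before to 50 after each annotated start) were held for 8 of the 10 genes, all but Hsp90aa1 and Hsp90ab1. They were searched on both strands for paired heat shock units, GAANNTTC and TTCNNGAA, each of which reads the same on either strand, and which overlap where units follow each other. The 3 genes with the largest differences and Cdc37, which had the smallest, are shown because they span the range of the response, with matches in capitals.

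Chordc1 promoter, chr9:18292017-18292316, plus strand: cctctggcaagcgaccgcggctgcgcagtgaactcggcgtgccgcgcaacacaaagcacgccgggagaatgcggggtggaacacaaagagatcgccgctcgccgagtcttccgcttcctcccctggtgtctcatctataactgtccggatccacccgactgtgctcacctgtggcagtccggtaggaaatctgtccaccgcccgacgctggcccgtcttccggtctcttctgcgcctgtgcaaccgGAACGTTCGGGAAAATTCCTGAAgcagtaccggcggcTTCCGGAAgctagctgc
Ahsa2 promoter, chr11:23497990-23498289, minus strand: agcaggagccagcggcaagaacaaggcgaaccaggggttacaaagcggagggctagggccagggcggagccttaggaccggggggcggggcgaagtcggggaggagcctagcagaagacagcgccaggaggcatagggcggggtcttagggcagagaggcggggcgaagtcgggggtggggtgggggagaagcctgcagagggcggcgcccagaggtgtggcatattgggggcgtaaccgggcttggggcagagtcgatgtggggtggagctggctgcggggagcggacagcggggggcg
Stip1 promoter, chr19:7039977-7040276, minus strand: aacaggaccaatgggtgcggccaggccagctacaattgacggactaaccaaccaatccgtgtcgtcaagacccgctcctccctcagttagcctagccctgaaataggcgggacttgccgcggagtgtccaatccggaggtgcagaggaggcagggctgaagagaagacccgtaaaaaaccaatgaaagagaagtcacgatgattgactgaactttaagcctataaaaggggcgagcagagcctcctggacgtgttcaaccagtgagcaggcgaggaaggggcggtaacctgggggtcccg
Cdc37 promoter, chr9:21149885-21150184, minus strand: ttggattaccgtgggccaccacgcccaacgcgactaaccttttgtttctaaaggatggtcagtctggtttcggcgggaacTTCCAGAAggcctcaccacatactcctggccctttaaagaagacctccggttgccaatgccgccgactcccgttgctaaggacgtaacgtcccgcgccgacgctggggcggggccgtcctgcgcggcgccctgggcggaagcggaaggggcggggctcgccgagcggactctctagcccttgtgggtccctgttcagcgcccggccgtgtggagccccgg

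The window of Chordc1 held 5 alternating units in a row, which begin 4 bases before the annotated start and run across it, and a separate TTCNNGAA match 33 bases after the start. A run of 5 or more units was found in 1 of the 32851 windows of the same length, that of Chordc1, and a run of 3 or more in 0.603% of them. Longer runs were searched after the data were seen, and the bar of 5 is the length of the Chordc1 run. These counts are therefore a description only. Cdc37 held 1 pair, 170 bases before the start, and Fkbp4 held 1, 151 bases before it. Neither letter pattern occurs in the windows of Ahsa1, Ahsa2, Stip1, Ptges3 and Cacybp. Either pair was found in 15.1% of all windows. A match is a description of these letters, and binding of HSF1 was not measured.

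Hsp90aa1, the stress-inducible cytosolic HSP90 gene, is measured by 3 probe sets. The brightest (1438902_a_at) had signals of 4769, 3792 and 4320 in control pools 1+2, 3+4 and 5+6 and of 5448, 6180 and 4266 in the UDCA pools in the same order. UDCA pools 1+2 and 3+4 lay above every control pool, and UDCA pool 5+6 lay within the control range. The difference was 0.29 (SE 0.14, n = 3 per group), from a mean of 4294 ± 489 to 5298 ± 966 (SD). The other probe sets, 1426645_at and 1437497_a_at, had differences of 0.38 (SE 0.14) and 0.38 (SE 0.20). In 1437497_a_at UDCA pool 5+6, at 1730, was below control pools 1+2 and 5+6, at 1735 and 2200. The 3 probe sets ran together over the 6 arrays, with r from 0.853 to 0.979 between them. With each array left out, 1438902_a_at ranged from 0.17 without UDCA pool 3+4 to 0.44 without UDCA pool 5+6. The range was 0.29 to 0.56 for 1426645_at and 0.26 to 0.61 for 1437497_a_at, both highest without UDCA pool 5+6.

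Hsp90ab1, the constitutive HSP90 gene, had signals of 4180, 4048 and 4386 in the control pools and 5088, 5315 and 4594 in the UDCA pools in probe set 1416364_at. In 1416365_at the signals were 2822, 2402 and 3238 in the control and 3745, 3610 and 3571 in the UDCA pools. In both probe sets the groups did not overlap after normalisation, whereas on the deposited scale they did. The differences were 0.25 (SE 0.07) and 0.38 (SE 0.10), with 0.38 and 0.51 on the deposited scale, and ranged from 0.20 to 0.31 and from 0.27 to 0.48 with each array left out. Hsp90aa1 and Hsp90ab1 encode closely related proteins, and whether their transcripts cross-hybridise on these probe sets was not tested.

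**Figure D1:**
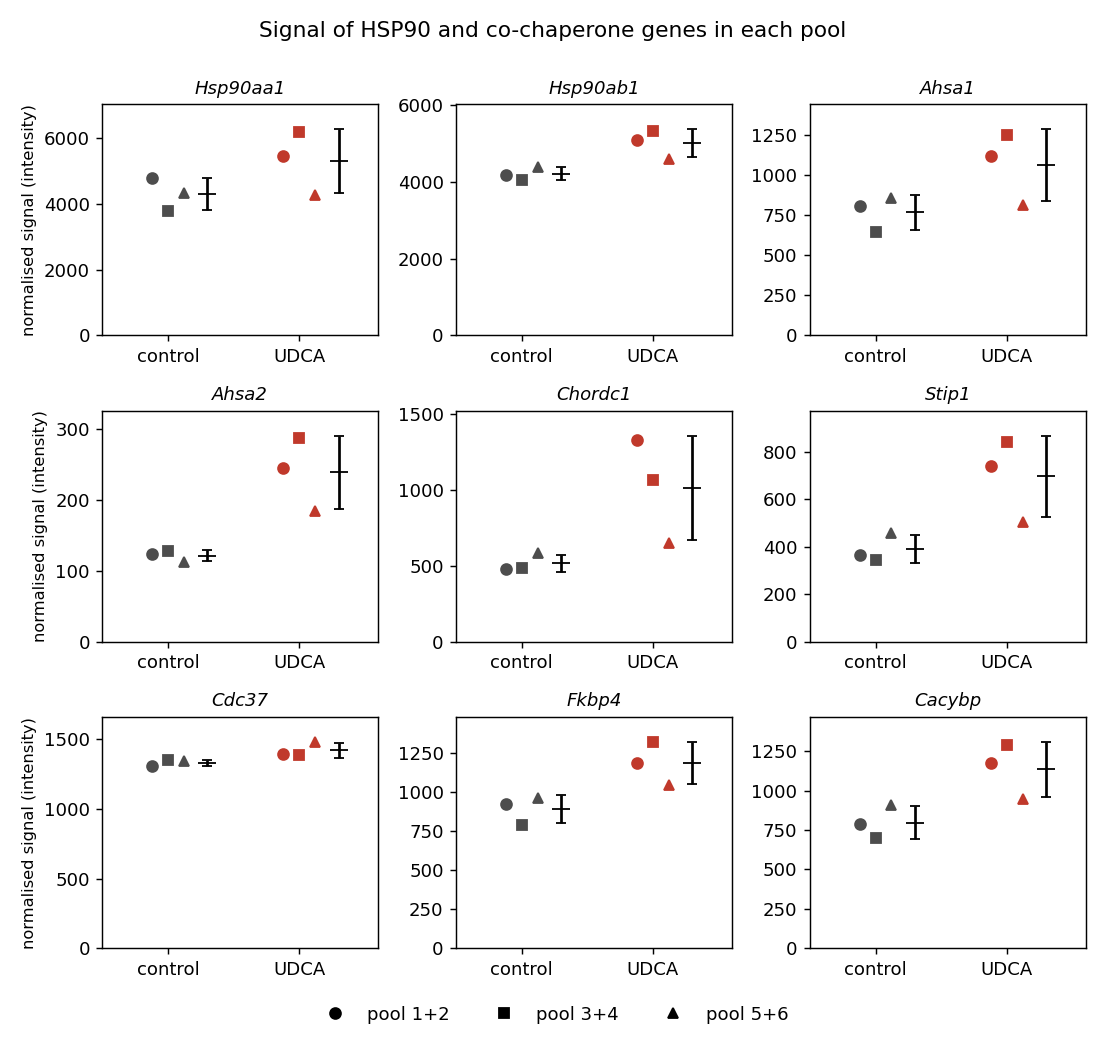
Normalised signal (intensity, linear axis from 0) of 9 genes in the 3 control and 3 UDCA pools, with the brightest probe set of each gene, 1 point per array and the group mean ± SD (n = 3) beside the points. UDCA pools 1+2 and 3+4 lie above all control pools in each panel, and UDCA pool 5+6 (triangle) is the lowest UDCA pool in every panel but that of Cdc37.

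Ahsa1 and Ahsa2 encode the activator of the HSP90 ATPase and its paralogue. Ahsa2 had signals of 124, 129 and 113 in the control pools and 246, 288 and 185 in the UDCA pools. Its groups were apart, and it was the only member whose groups were also apart on the deposited scale. The difference was 0.87 (SE 0.16), from 122 ± 8.27 to 239.7 ± 51.7. It ranged from 0.74 without UDCA pool 3+4 to 1.04 without UDCA pool 5+6. Ahsa1 had 806, 644 and 854 in the control and 1119, 1251 and 812 in the UDCA pools. UDCA pool 5+6 lay between the control pools, so the groups overlapped. The difference was 0.44 (SE 0.17), with 0.32 without UDCA pool 3+4 and 0.62 without UDCA pool 5+6 as the lowest and highest.

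Stip1 and Cdc37 bring clients to HSP90: Stip1 (also called HOP) links HSP70 to HSP90 in client transfer, and Cdc37 recruits protein kinases. Stip1 had signals of 365, 346 and 457 in the control pools and 743, 842 and 507 in the UDCA pools. The groups were apart, and across the diets control and UDCA pool 5+6 lay closest to each other. The difference was 0.79 (SE 0.19), from 389 ± 58.9 to 697 ± 172, and ranged from 0.65 without UDCA pool 3+4 to 1.003 without UDCA pool 5+6. Cdc37 stood at 1307, 1349 and 1342 in the control pools and 1394, 1387 and 1482 in the UDCA pools, with groups that were apart but overlapped on the deposited scale. It differed by 0.09 (SE 0.08), by 0.22 on the deposited scale and by 0.21 after median centring, and ranged from 0.06 without UDCA pool 5+6 to 0.11 without UDCA pool 3+4. It was the member in which UDCA pool 5+6 was the highest pool. A second Cdc37 probe set, 1416820_at, lay below the filter with means of 13.5 ± 7.36 and 32.6 ± 6.47.

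Chordc1, Fkbp4, Cacybp and Ptges3 encode further HSP90 partners. Chordc1, a protein with cysteine- and histidine-rich (CHORD) domains that binds HSP90 and the gene with the run of heat shock units above, had signals of 480, 484 and 583 in the control pools. In the UDCA pools it had 1330, 1064 and 647. UDCA pools 1+2 and 3+4 were well above the controls and UDCA pool 5+6 was close to control pool 5+6. The difference was 0.90 (SE 0.23), from 516 ± 58.6 to 1014 ± 344, and ranged from 0.68 without UDCA pool 1+2 to 1.19 without UDCA pool 5+6. On the deposited scale UDCA pool 5+6, at 602, lay below control pool 5+6, at 631. Fkbp4, a peptidyl-prolyl isomerase of steroid receptor complexes, had 924, 786 and 957 in the control and 1186, 1316 and 1045 in the UDCA pools. It differed by 0.40 (SE 0.12), with a range of 0.32 without control pool 3+4 to 0.49 without UDCA pool 5+6. Its second probe set, 1416363_at, lay below the filter with means of 35.7 ± 3.71 and 36.2 ± 5.80. Cacybp, which binds S100A6 and the ubiquitin ligase Siah1, had 786, 698 and 908 in the control and 1173, 1288 and 946 in the UDCA pools. It differed by 0.50 (SE 0.14), or 0.40 without UDCA pool 3+4 and 0.62 without UDCA pool 5+6, with groups that were apart after normalisation and overlapped on the deposited scale. The probe sets shared by Ptges3, which encodes the p23 protein that binds the ATP-bound HSP90 dimer, and its pseudogene differed by 0.13 (SE 0.10) and 0.15 (SE 0.10), with groups that overlapped after quantile normalisation and were apart after median centring. These 2 differences were 0.26 and 0.27 on the deposited scale, and 0.04 and 0.08 without UDCA pool 3+4.

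**Figure D2:**
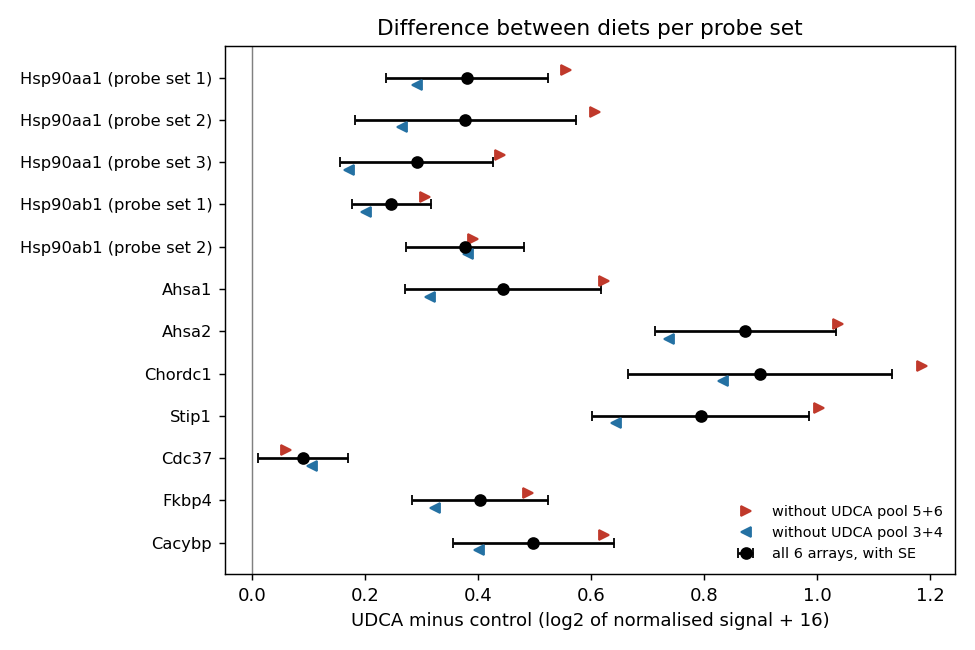
Difference between UDCA and control pools (log2 of normalised signal + 16) for the 10 member probe sets above the filter and the 2 of Hsp90ab1, with SE bars (n = 3 per group). The triangles give the value without UDCA pool 5+6 (red) or without UDCA pool 3+4 (blue), and probe sets of 1 gene are numbered in the order of their IDs. All values lie above 0, from 0.09 for Cdc37 to 0.90 for Chordc1 with all arrays.

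Counted over probe sets, 10 of the 12 passed the filter, with the second probe sets of Cdc37 and Fkbp4 below it. All 10 had a positive difference, where 51.3% of all tested probe sets did. In limma with Benjamini-Hochberg adjustment 0 of the 10 passed an adjusted p of 0.05, against 0.00884% of all tested probe sets, which is 1 probe set. At an unadjusted p under 0.05, 7 of the 10 were higher, against 6.98% of all. The groups were apart in 6 of the 10, 1 each for Ahsa2, Chordc1, Stip1, Cdc37, Fkbp4 and Cacybp, against 10.9% of all. On the deposited scale 3 passed in limma, those of Ahsa2, Chordc1 and Stip1 (0.451% of all passed in that direction), and the groups were apart in 1 (3.72% of all). The arrays are not on 1 level there. Since the family was chosen by this contrast, these shares describe the members and support nothing further. As deposited, leaving out pool 1+2 of either diet or UDCA pool 3+4 gave 0 in limma, and leaving out control pool 3+4 gave 1. With control pool 5+6 left out there were 6, and with UDCA pool 5+6 left out also 6. The share of all probe sets past the threshold was not counted in these fits. Whether the counts are particular to the members cannot be told from them.

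The same pools were high or low in most members. UDCA pool 5+6 was the lowest UDCA pool in 9 of the 10 probe sets, all but Cdc37, against 33.3% of all tested probe sets. Control pool 5+6 was the highest control pool in 7 of the 10, against 37.3% of all. The mean of the 8 genes, each centred on its mean over the arrays, was -0.25, -0.38 and -0.17 in the control pools and 0.37, 0.46 and -0.02 in the UDCA pools on the log2 scale. The step from the control mean in UDCA pool 5+6 over the 10 probe sets ran from -0.08 for Hsp90aa1 in 1437497_a_at to 0.55 for Ahsa2, with 0.09 for Ahsa1 and 0.32 for Chordc1. Between the 28 pairs of genes, r over the 6 arrays ran from 0.064 to 0.990 with a median of 0.890, and these values share the difference between the groups. Cdc37 had the lowest r with the mean of the members, 0.425, and the other 7 had 0.898 to 0.993.

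**Figure D3:**
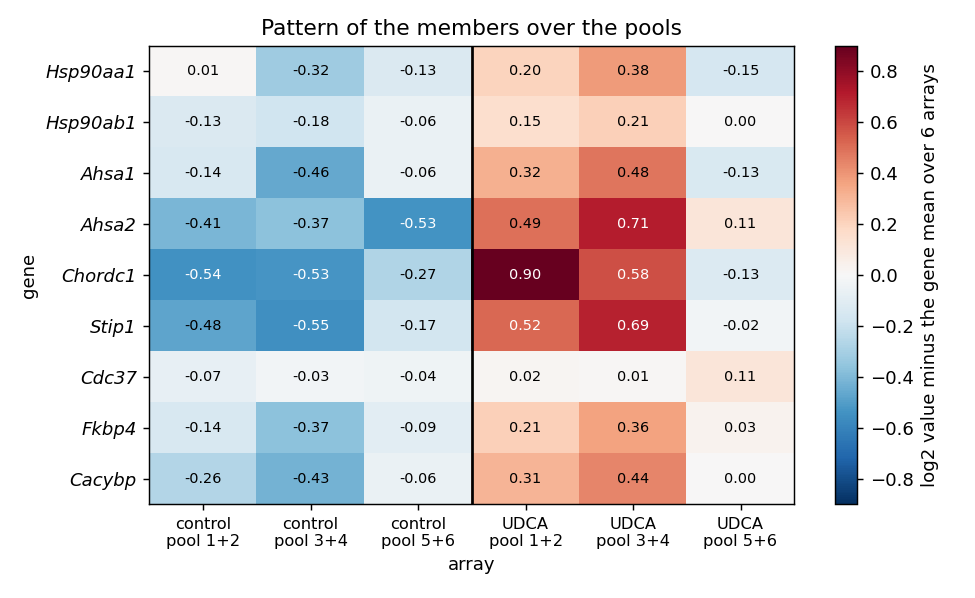
Log2 value of each gene minus its mean over the 6 arrays (columns, control left of the line, UDCA right), with the brightest probe set of each gene; red is above and blue below the mean. UDCA pools 1+2 and 3+4 are above the mean in every gene, and UDCA pool 5+6 lies between -0.15 and 0.11.

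Of the rest of the pathway, the list of heat shock factor genes and their established targets had the median nearest to that of the members. Of its 20 genes, 13 lay above the filter with an assignable probe set. The factor genes Hsf1 and Hsf2 were not among these 13, so the values are those of targets only. Of the 13, 12 had a positive difference, where 3395 of all 6771 genes tested had one. Their median was 0.31, against 0.00 over all genes and 0.47 over the 8 members. In limma 0 passed an adjusted p of 0.05, with 7 of 13 higher at an unadjusted p under 0.05 (493 of all 6771). On the deposited scale, where the arrays are not on 1 level, 3 passed and were higher, Hspa8, Dnaja1 and Hsph1, where 37 of all genes did. The list was chosen with earlier results of these data known, so these counts are a description. The count on the deposited scale was 0 without control pool 1+2, 1 without UDCA pool 1+2 or UDCA pool 3+4, and 5 without UDCA pool 5+6. The share over all genes was not counted with an array left out. In 2 of the 13, Hspa8 and Hspe1, the groups were apart and higher in UDCA, and in 0 they were apart and lower. Among all 6771 genes these counts were 752 and 588. Hspe1 is named after its values were seen, and its groups overlapped on the deposited scale. Hspa8, the constitutive HSP70 gene, had a mean of 5562 ± 588 in control and 8008 ± 1157 in UDCA pools, a difference of 0.52 (SE 0.12). The HSP40 gene Dnaja1 and the HSP110 gene Hsph1 had 0.76 (SE 0.28) and 1.40 (SE 0.39), both with overlapping groups. In both, UDCA pool 5+6 (1604 and 524) lay below control pool 5+6 (1804 and 570). The stress-inducible HSP70 genes Hspa1a and Hspa1b, which are close copies of each other and bright in both groups, had 0.04 (SE 0.06) and 0.09 (SE 0.06), and the mitochondrial chaperonin gene Hspd1 had 0.31 (SE 0.12).

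Other HSP90 paralogues and co-chaperones, 21 of 28 above the filter, had a median difference of 0.05 (0.17 as deposited and 0.16 after median centring), with 13 positive and 8 negative. Over all genes the median was 0.00 (0.08 as deposited and 0.07 after median centring). In limma 0 passed, normalised or as deposited, with 4 of 21 higher and 0 lower at an unadjusted p under 0.05, where 493 of all 6771 genes were higher and 481 lower. Hsp90b1, the HSP90 of the endoplasmic reticulum, had 0.26 (SE 0.09), the ubiquitin ligase gene Stub1 -0.15 (SE 0.09), the HSP40 gene Dnajc7 0.05 (SE 0.10) and the phosphatase gene Ppp5c -0.04 (SE 0.13). On the deposited scale Ppp5c was at 0.07. The groups were apart and higher in UDCA for 3 genes, Fkbp5, Ttc1 and Ruvbl1, which are named after their values were seen, with 0.62 (SE 0.19), 0.25 (SE 0.10) and 0.42 (SE 0.15), and they overlapped on the deposited scale for each. They were apart and lower for 1 gene, Stub1, which was at -0.02 with overlapping groups on the deposited scale. Over all 6771 genes the groups were apart and higher for 752 and apart and lower for 588. Genes of HSP90 client proteins, 11 of 20 above the filter, had a median of -0.18, with 2 positive and 9 negative. On the deposited scale 5 of these 11 were positive, where 4373 of all 6771 genes were. In limma 0 passed, with 1 lower at an unadjusted p under 0.05, the aryl hydrocarbon receptor gene Ahr at -0.38 (SE 0.11), against 481 lower of all 6771 genes. The groups were apart and lower for 2 client genes, Ahr and the receptor kinase gene Met, both named after their values were seen. On the deposited scale they were apart for Ahr and overlapped for Met. The means of Met, 89.6 in control and 74.5 in UDCA pools, lay near the filter. The brightest client genes, Hif1a, Akt1, Cdk4 and Ikbkb, had 0.09 (SE 0.12), -0.09 (SE 0.10), 0.14 (SE 0.12) and -0.22 (SE 0.13), and Akt1 was at 0.01 on the deposited scale.

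**Figure D4:**
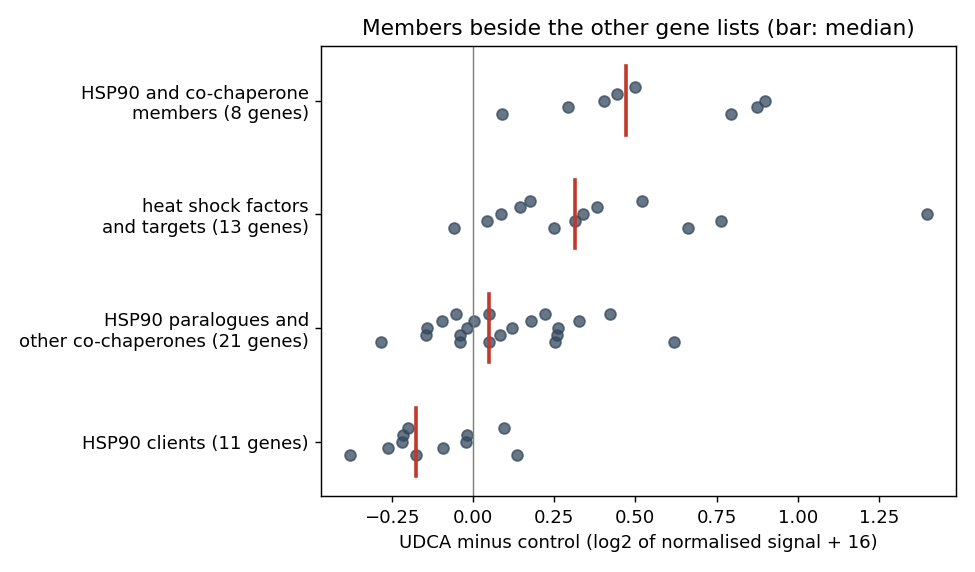
Difference between UDCA and control pools (log2 of normalised signal + 16), 1 point per gene with its brightest probe set, for the 8 members and 3 other lists; the red bar is the median. The medians are 0.47, 0.31, 0.05 and -0.18 from top to bottom.

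Outside the family, the genes whose values over the 6 arrays were most like the mean of the members were Pgam1, a glycolytic phosphoglycerate mutase, Wdr4, a subunit of a transfer RNA methyltransferase, Cct6a, a subunit of the TRiC chaperonin, and Pank1, a pantothenate kinase. They were followed by Creld2 of the endoplasmic reticulum, the dynein light chain gene Dynll1, Ralgds, which activates Ral GTPases, and Mybbp1a of the nucleolus. Pearson's r was 0.984 to 0.995 for these 8 genes. Of all 6771 genes compared, 3.60% had an r of 0.9 or more, and all r share the 6 arrays and their groups. Wdr4 had signals of 76.2, 66.8 and 78.6 in the control and 135, 158 and 99.9 in the UDCA pools. Cct6a had 1979, 1903 and 2055 in the control and 2318, 2413 and 2064 in the UDCA pools.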

How the data were processed

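Gene expression was measured on Affymetrix arrays from biotin-labelled cRNA made from 3 µg total RNA, per the labels' protocols. The deposited intensity values are 1 linear signal per probe set, summarised with GCOS per the submitters' processing notes; no version or scaling target is stated. A table of averages and signed folds was also deposited. The authors' fold columns in it, treated as a score because no formula is stated, were not used; the column headed as the N average matched the 6-array mean, control and UDCA together, for each of 22690 rows (within 0.0051). The averages served to match rows to probe sets, uniquely for both Hsp90ab1 rows. Gene names came from the platform annotation: 20393 probe sets had 1 symbol, 691 had several and 1606 are not listed there or have no symbol.

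Signals without the 64 Affymetrix controls were quantile-normalised, because the array levels differ, and log2(signal + 16) was taken. The upper 50% by mean over all arrays (11313 probe sets) went into limma 3.58.1 (R 4.3.3; lmFit, then eBayes with trend), UDCA minus control, two-sided, with Benjamini-Hochberg adjustment at 0.05. The p-values measure the spread between pools of different animals, and the number of arrays limits the precision; with 3 arrays a group the smallest two-sided p of an exact permutation test is 0.1. The fit was tested on simulated data. Each gene in a list is given by its brightest probe set. From each other list the 4 brightest genes and those past the threshold, normalised or as deposited, are named, and the 8 genes most like the members. Members and lists were chosen with earlier results of these data known. Alternatives were no scaling, median centring, other pseudocounts and filters, no trend, a replicate block, a looser threshold and each array left out.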

Additional observations from a re-analysis of the deposited data

How the results depend on the processing

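All 12 probe sets described (10 of members, 2 of Hsp90ab1) kept a positive difference under each of the 14 alternatives they could be fitted in, 167 values in all. Ahsa2 lay outside the upper 25% by mean. The other filters, the fit without trend and the replicate block cannot change a difference. Their values repeat the main fit and say nothing on the direction. The count of member probe sets past an adjusted p of 0.05 in limma was 0 under every alternative listed in the methods except the deposited scale, where it was 3, and so was the count of heat shock factor genes and targets, 3 as deposited and 0 otherwise. With each array left out in turn the count of member probe sets stayed at 0, with 5 to 9 of the 10 at an unadjusted p under 0.05. With all arrays 7 of the 10 were higher at that p, against 6.98% of all tested probe sets. The share over all was not counted with an array left out. Member probe sets with groups apart numbered 6 after normalisation (10.9% of all tested probe sets) and 1 as deposited (3.72% of all). They numbered 6 to 10 with each array left out, the 10 without UDCA pool 5+6. Groups of 3 and 2 arrays separate more easily than 3 and 3. The share over all probe sets was not counted there, so the counts with an array left out do not show stability. The median difference of the 8 genes, 0.47, was 0.58 as deposited, 0.57 after median centring and 0.36 to 0.62 with each array left out. The median over all 6771 genes moved too, from 0.00 to 0.08 as deposited and 0.07 after median centring. Deviations from the group mean correlated at -0.10, 0.16 and 0.05 between same-numbered pools, and at -0.20 to 0.15 between the others. Within a group of 3 these deviations sum to 0, so they cannot decide whether same-numbered pools were paired. With the replicate block 0 members passed. The median of 0.47 could not change there, because each block holds 1 array of each diet, so it does not bear on pairing either. The deposited scale with each array left out, the naming of Hsp90ab1 and the search for longer runs of heat shock units were added after seeing the data. On arrays the signal over background sets the limit, which keeps 1 probe set each of Cdc37 and Fkbp4 out of the counts.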
